A study of Mus musculus with 9 samples.

Results

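The mouse genes whose symbol is Zfp followed only by digits were described across 9 RNA sequencing libraries. The cells were 4T1-TGL, which derive from the mouse mammary carcinoma line 4T1. By this rule 324 of the 19072 gene identifiers in the tables are members, and 302 of them were listed in all 9 libraries. The KO1 group holds 3 libraries of a first Malat1 knockout line and the KO2 group 3 libraries of a second one. The Ctrl group holds 3 libraries of cells with an intact Malat1 gene, the gene of an abundant nuclear long noncoding RNA. All were grown untreated in DMEM/F12 medium, and their strain label is BALBC. How the knockout lines were edited and whether each is 1 clone is not given in the labels. They also do not say whether the replicates came from different cultures, so the p-values speak to library spread alone, and that spread may be technical.

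Most Zfp genes encode proteins with runs of C2H2 zinc fingers, small domains that each hold a zinc ion and read a few bases of DNA. In the mouse many of them also carry a KRAB domain, which recruits the corepressor TRIM28 and, through it, the histone methyltransferase SETDB1. Such KRAB zinc finger proteins are best known for silencing retrotransposons and for keeping imprinted genes silent, and their genes lie in clusters that grew by repeated duplication. The name covers other kinds of protein too, since Zfp36 encodes a CCCH zinc finger protein that marks mRNAs for decay and Zfp185 encodes a LIM domain protein of the actin cytoskeleton.

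The libraries held 30655924 to 35406395 expected counts each, and between 305 and 315 members were listed in each. Malat1 was at 0.735% of the Ctrl mean in KO1 and at 27.2% in KO2, as CPM (counts scaled to a common library size). On the first principal component of the members, which carried 65.4% of their variance, the KO2 libraries stood apart from the other 6, and on the second, with 22.9%, KO1 stood apart from Ctrl. Over all tested genes the corresponding components carried 66.3% and 21.2%, with the same separation of groups. Of 6 breast epithelial markers, Krt8 and Krt18 were abundant, while Epcam, Cdh1, Cldn4 and Krt19 stayed under 1 CPM in every library. Their summed level was 1170 to 1400 CPM in KO1, 2120 to 2320 CPM in KO2 and 700.0 to 718 CPM in Ctrl. Markers of other cell types moved too: the summed level of 5 fibroblast markers, mostly Pdgfra, was 251 to 275 CPM in KO1, 138 to 145 CPM in KO2 and 294 to 304 CPM in Ctrl. That of 6 leukocyte markers, mostly Cd68, was 28.0 to 37.4 CPM in KO1, 12.3 to 15.0 CPM in KO2 and 14.6 to 21.4 CPM in Ctrl. Ptprc and Adgre1 stayed under 1 CPM in every library. Of 5 T and NK cell markers, Cd3d and Nkg7 were at 0. Lck of that list had means of 4.17 CPM in KO1, 1.78 CPM in KO2 and 3.79 CPM in Ctrl. The list summed to 3.78 to 5.17 CPM in KO1, 1.63 to 2.26 CPM in KO2 and 2.73 to 5.26 CPM in Ctrl. KO2 replicate 2 stood apart in the other direction, with 2.24 CPM of the fibroblast marker Col3a1, against 0.0328 and 0.068 CPM in the other KO2 libraries. Its 4 endothelial markers summed to 3.15 CPM, against 0.0328 and 0.136 CPM in the other KO2 libraries, 0.517 to 0.712 CPM in KO1 and 0.24 to 0.486 CPM in Ctrl. The part of these shifts in the results on Zfp genes was not tested.

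Zfp genes were broadly present in these cells at modest levels. In KO1 271 of the 324 members reached 1 FPKM (fragments scaled by transcript length and library size) in every library, in KO2 267 and in Ctrl 272, and 261 did so in all 3 groups. The median tested member had a mean of 5.11 FPKM in KO1, 4.86 in KO2 and 5.11 in Ctrl, against 10.2, 9.12 and 10.1 FPKM over all tested genes. Members together took 1.15% to 1.24% of the counts of a library. One gene, Zfp575, held between 10.9% and 16.2% of the members' counts. Its FPKM values were 284, 393 and 327 in KO1, 389, 397 and 420 in KO2, and 387, 314 and 362 in Ctrl. These groups overlap in KO1 and not in KO2, and neither contrast passed the test (log2 fold change -0.11 for KO1, 0.26 for KO2; edgeR adjusted p = 0.495 and 0.0767). Zfp575 had no whole-number count in any library, which leaves its level uncertain, while Ethe1, whose annotated span overlaps it on chromosome 7, had a whole-number count in all 9. Next in FPKM in Ctrl came Zfp207, whose product binds the spindle checkpoint protein BUB3, and then Zfp106, which encodes an RNA-binding protein.

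The test could be run on 301 members, and the other 23 were too low. Of those 23, 15 had at most 3 counts in every library, among them Zfp521. Zfp42, better known as the pluripotency marker Rex1, and the epidermal regulator gene Zfp750 were also untested, with at most 0.02 FPKM in any library. The largest count of an untested member was 40, for Zfp711 in KO1 replicate 3, where its level was 0.3 FPKM; it was listed in no other library.

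In KO1 against Ctrl, 77 of the 301 tested members were called at an adjusted p under 0.05, which is 25.6%, while 30.5% of all tested genes were called. Members were called lower more often than higher, with 56 lower (18.6%, against 14.9% of all genes) and 21 higher (6.98%, against 15.6% of all genes). Without Ctrl replicate 3 the count fell to 49, while the calls over all tested genes fell from 4177 to 3309. In KO2 against Ctrl 154 members were called (51.2%, against 54.1% of all genes), 102 of them lower (33.9%, against 29.5%) and 52 higher (17.3%, against 24.6%). With limma on log2(FPKM + 0.1), which carries no TMM scaling, 120 were lower and 34 higher. In that setting all tested genes moved down too, to a median log2 fold change of -0.11, from -0.03 with TMM scaling. With TMM scaling the median log2 fold change of the tested members was -0.08 in KO1 and -0.07 in KO2, against 0.00 and -0.03 over all tested genes. It lay below the median of all genes by 0.08 in KO1 and by 0.04 in KO2 under each of the 4 scalings tried. Without KO2 replicate 2 the KO2 count was 123, with 82 lower and 41 higher, while the calls over all tested genes fell from 7400 to 6456. Both contrasts share the Ctrl libraries.

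**Figure D1:**
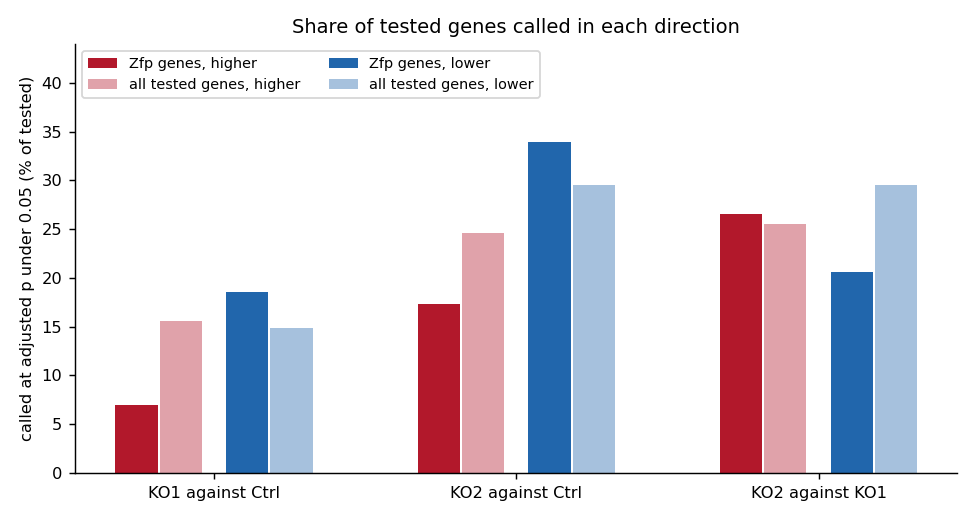
Percentage of tested genes called at an adjusted p under 0.05 in each contrast (edgeR quasi-likelihood test), for the 301 tested Zfp genes (dark bars) and for all 13682 tested genes (pale bars), split into higher (red) and lower (blue). Against Ctrl, the Zfp bars are below those of all genes for higher calls and above them for lower calls.

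Large changes were few. Of the 77 members called in KO1, 68 changed by less than 2-fold, and of the 154 called in KO2, 135 did. At least 2-fold higher were 3 members in KO1 (0.997%, against 4.40% of all genes) and 3 in KO2 (0.997%, against 3.95%). At least 2-fold lower were 6 in KO1 (1.99%, against 3.52%) and 16 in KO2 (5.32%, against 11.4%). In both lines 40 members were called in the same direction (13.3%, against 14.1% of all genes), 7 higher and 33 lower, and 118 members (39.2%, against 35.6%) were called in neither. The count of 40 was 25 without Ctrl replicate 1, 26 without Ctrl replicate 3 and 25 without KO1 replicate 3.

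A gene was taken as switched off in a line when it had at least 0.5 CPM in every Ctrl library and at most 3 counts over the 3 libraries of that line, and as switched on in the reverse case. By this rule no member was switched on or off in KO1 and none was switched on in KO2, while 1 was switched off in KO2, Zfp612. Among all tested genes 0.351% were switched off and 0.0585% switched on in KO1, and 1.53% were switched off and 0.102% switched on in KO2. The gene with the largest rise, Zfp523, missed the rule because Ctrl libraries still held 11 to 19 counts of it. These are bulk libraries, in which fewer cells expressing a gene and less RNA per cell cannot be told apart.

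Zfp523, the mouse counterpart of the human transcriptional activator gene ZNF76, was nearly silent in Ctrl and clearly present in both knockout lines. The gene (224656) lies on chromosome 17, from 28177196 to 28205886 in GRCm38. Its counts were 709, 687 and 727 in KO1, 1004, 919 and 922 in KO2, and 17, 19 and 11 in Ctrl. In FPKM it stood at 7.83, 8.14 and 8.60 in KO1, at 11.8, 11.2 and 11.1 in KO2, and at 0.19, 0.20 and 0.12 in Ctrl. Every knockout library was far above every Ctrl library, and the KO2 libraries were all above those of KO1. The means were 21.3 ± 0.954 CPM in KO1, 31.8 ± 0.949 CPM in KO2 and 0.460 ± 0.109 CPM in Ctrl (SD, n = 3 each). On the log2 scale KO1 exceeded Ctrl by 5.52 ± 0.14 (SE) at an edgeR adjusted p of 6.13e-10, and KO2 exceeded Ctrl by 6.09 ± 0.14 (SE) at 7.24e-11. The difference of KO2 from KO1 was 0.58 (log2; edgeR adjusted p = 0.000362).

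**Figure D2:**
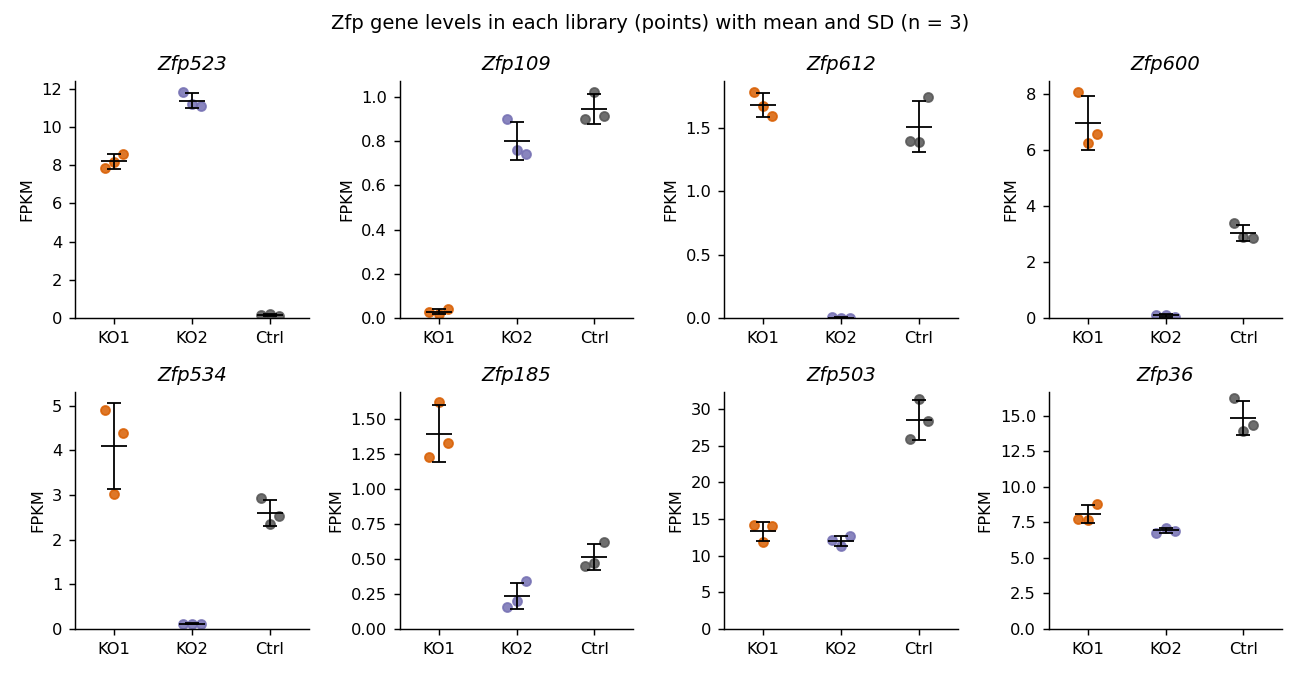
FPKM of 8 Zfp genes in each library (points), with the mean and SD of the 3 libraries of KO1 (orange), KO2 (purple) and Ctrl (grey) on linear axes from 0. Zfp523 is high in both knockout lines, Zfp109 is near 0 in KO1, Zfp612, Zfp600 and Zfp534 are near 0 in KO2, and Zfp503 and Zfp36 are lower in both lines than in Ctrl.

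The next tested gene upstream of Zfp523 moved the other way in both lines. Scube3, which encodes a secreted EGF-like repeat protein and ends at 28174851 on the same chromosome, was at 6.11 ± 0.748 CPM in KO1, 6.31 ± 0.606 CPM in KO2 and 93.4 ± 3.98 CPM in Ctrl (SD, n = 3 each). Its log2 fold changes were -3.93 and -3.89 (edgeR adjusted p = 9.41e-10 and 3.02e-10). On the other side, Def6 had log2 fold changes of 0.35 in KO1 and 0.53 in KO2, and Ppard of -0.22 and -0.80. Neither Zfp523 nor Scube3 had a whole-number count in any library, and whether reads were split between transcripts of the 2 genes was not tested. The genes around the largest changes were looked up after those changes had been seen.

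The promoter of Zfp523 is shown because the gene rose the most in both lines. It is taken from RefSeq (GRCm38.p6), as the 250 bases before the annotated start, chr17:28176946-28177195 on the plus strand, with every CG dinucleotide in capitals.
Zfp523: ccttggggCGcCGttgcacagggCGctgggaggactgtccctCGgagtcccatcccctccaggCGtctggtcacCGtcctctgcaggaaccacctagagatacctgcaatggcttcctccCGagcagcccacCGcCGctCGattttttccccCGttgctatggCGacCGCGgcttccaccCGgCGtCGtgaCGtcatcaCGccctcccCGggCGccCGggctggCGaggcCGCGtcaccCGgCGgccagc
This window holds 27 CG dinucleotides and a GC content of 70.0%. A window was found for 267 of the 324 members, with a median of 11 CG, against 6 over all 27025 promoters in the table. It also holds the 8-base palindrome TGACGTCA, the consensus that CREB and ATF factors bind, which reads the same on both strands and occurs in 9 of the 267 member windows (3.37%) and in 1.62% of all windows. Such a match is a description of the letters and not of binding.

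Zfp612, a KRAB zinc finger gene on chromosome 8 (234725, from 110079705 to 110092753), was at the Ctrl level in KO1 and all but absent in KO2. Its counts were 311, 269 and 266 in KO1, 1, 0 and 0 in KO2, and 239, 265 and 291 in Ctrl. The mean was 8.47 ± 0.409 CPM in KO1, 0.0109 ± 0.0189 CPM in KO2 and 7.83 ± 0.890 CPM in Ctrl (SD, n = 3 each). KO2 thus held 0.143% of the Ctrl level, with an exact binomial 95% interval of 0.00362% to 0.800% that covers counting error only (edgeR adjusted p = 3.67e-09). The KO1 libraries overlapped those of Ctrl (log2 fold change 0.11, edgeR adjusted p = 0.591). Of the nearest tested genes on either side, Phlpp2 was at 26.3 ± 0.514 CPM in KO2 and 26.0 ± 1.32 CPM in Ctrl (SD, n = 3 each), and Cmtr2 at 8.77 ± 1.248 CPM in KO2 and 12.98 ± 1.44 CPM in Ctrl (SD, n = 3 each; log2 fold change -0.57, edgeR adjusted p = 0.0152). Farther out, at -504.6 kb, Hp, the gene of the plasma protein haptoglobin, was also nearly lost in KO2, with 0.0678 ± 0.117 CPM, against 18.6 ± 0.515 CPM in Ctrl (SD, n = 3 each; edgeR adjusted p = 5.1e-08). Vac14, at 538.8 kb, was lower by less (log2 fold change -0.72, edgeR adjusted p = 0.000759).

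Among the low members, Zfp352 and Zfp2 were also near 0 in a knockout line. Zfp352 had 0 counts in KO2, against 41 over the KO1 libraries and 35 over the Ctrl libraries. Against Ctrl, Zfp352 in KO2 was at least 10.3-fold lower when 3 counts over the 3 libraries are taken as the floor. Its fitted call depends on so few counts (edgeR adjusted p = 0.000972). Zfp2, too low for the test, had 0 counts in KO1, 1 count in KO2 and 26 in Ctrl, which is at least 8.5-fold lower in KO1 against the same floor. In KO2 it was at 4.38% of Ctrl, with an exact binomial 95% interval of 0.107% to 26.6%. At about 0.01 FPKM, 1 count of Zfp2 lies at the listing minimum of the tables.

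Zfp109 was the member with the largest drop in KO1. It lies within a cluster of zinc finger genes on chromosome 7 (56869, from 24227795 to 24252339). Its counts were 5, 4 and 7 in KO1, 135, 123 and 128 in KO2, and 165, 184 and 146 in Ctrl, so that KO1 alone stood far from the others. The mean was 0.161 ± 0.0476 CPM in KO1, 4.31 ± 0.130 CPM in KO2 and 4.86 ± 0.380 CPM in Ctrl (SD, n = 3 each). The log2 fold change for KO1 was -4.89 ± 0.21 (SE), with an edgeR adjusted p of 4.29e-08, and for KO2 -0.17 (edgeR adjusted p = 0.339), and the lines differed by 4.72 (edgeR adjusted p = 1.53e-08). The next tested gene on its lower-coordinate side, Zfp111, changed far less, with 27.7 ± 1.14 CPM in KO1 and 33.7 ± 0.451 CPM in Ctrl (SD, n = 3 each; log2 fold change -0.28, edgeR adjusted p = 0.00832). On the other side Zfp108, low in all groups, was at 0.391 ± 0.0325 CPM in KO1 and 0.600 ± 0.0531 CPM in Ctrl (SD, n = 3 each; log2 fold change -0.61, edgeR adjusted p = 0.189).

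Zfp600 and Zfp534 were close to silent in KO2 and raised in KO1. Both are KRAB zinc finger genes at the distal end of chromosome 4, Zfp600 (667666) from 146156827 to 146198756 and Zfp534 (100503584) from 147674225 to 147702631. Zfp600 had 8.08, 6.25 and 6.59 FPKM in KO1, 0.12, 0.13 and 0.05 FPKM in KO2, and 3.39, 2.91 and 2.87 FPKM in Ctrl. Every KO1 library was above, and every KO2 library below, all Ctrl libraries. KO1 was above Ctrl by 1.23 ± 0.16 (log2, SE; edgeR adjusted p = 0.000162), whereas the log2 fold change of KO2 was -5.51 ± 0.27 (SE; edgeR adjusted p = 2.66e-08). Zfp534 had 4.89, 3.03 and 4.38 FPKM in KO1, 0.12, 0.10 and 0.12 FPKM in KO2, and 2.92, 2.35 and 2.53 FPKM in Ctrl. Its log2 fold change was -4.50 ± 0.26 in KO2 (SE; edgeR adjusted p = 1.05e-07). In KO1 it was 0.63 (edgeR adjusted p = 0.0178), a call that was lost without Ctrl replicate 2 (0.57, adjusted p = 0.0584), Ctrl replicate 3 (0.60, adjusted p = 0.0629), KO1 replicate 1 (0.48, adjusted p = 0.0611) or KO1 replicate 3 (0.58, adjusted p = 0.0672). Neither gene had a whole-number count in any library. Both have close copies nearby, and the mm10 assembly is of another strain than these cells, so their single values are uncertain.

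The low level in KO2 extended to the zinc finger genes between them and to those at lower coordinates than Zfp600. Over the stretch of chromosome 4 from 145585172 to 148166420, chosen after these values were seen, 14 tested genes carry a zinc finger label in the tables, including the members Zfp600, Zfp534 and Zfp933. In KO2 12 of the 14 were lower (85.7%, against 29.5% of all tested genes) and none higher (against 24.6%). Their median log2 fold change was -4.65, and 10 of them were at least 4-fold lower, 1 of which, Znf41-ps, had 0 counts in KO2. None of the 14 had a whole-number count in more than 2 of the 9 libraries. Whether reads were shared among close copies was not tested, so the 14 are not separate observations. In KO1 6 were higher (42.9%, against 15.6% of all tested genes) and 2 lower (14.3%, against 14.9%; 1 in place of 2 without any 1 of 6 libraries), with a median of 0.33. The labelled genes distal to Zfp534, Gm13157 and Zfp933, were not called in KO2 (edgeR adjusted p = 0.0782 and 0.912). The other 14 tested genes of the stretch all start at 147821777 or beyond, distal to Zfp534, so label and position cannot be told apart. They had a median of -0.20 in KO2, with 6 lower (42.9%) and 2 higher (14.3%). Of these, 1 was at least 4-fold lower, the natriuretic peptide gene Nppb, at 0.415 ± 0.1999 CPM in KO2 and 7.41 ± 1.58 CPM in Ctrl (SD, n = 3 each; log2 fold change -4.15, edgeR adjusted p = 3.08e-07). Gm13154 was at 28.1 ± 5.48 CPM in KO1, 0.223 ± 0.0760 CPM in KO2 and 33.6 ± 2.46 CPM in Ctrl (SD, n = 3 each). Rex2 was at 8.48 ± 1.27 CPM in KO1, 0.0452 ± 0.0518 CPM in KO2 and 3.19 ± 0.347 CPM in Ctrl (SD, n = 3 each). Zfp933, near the distal edge, kept 18.0 ± 1.42 CPM in KO1, 17.8 ± 1.31 CPM in KO2 and 18.0 ± 2.78 CPM in Ctrl (SD, n = 3 each; edgeR adjusted p = 0.912 in KO2).

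**Figure D3:**
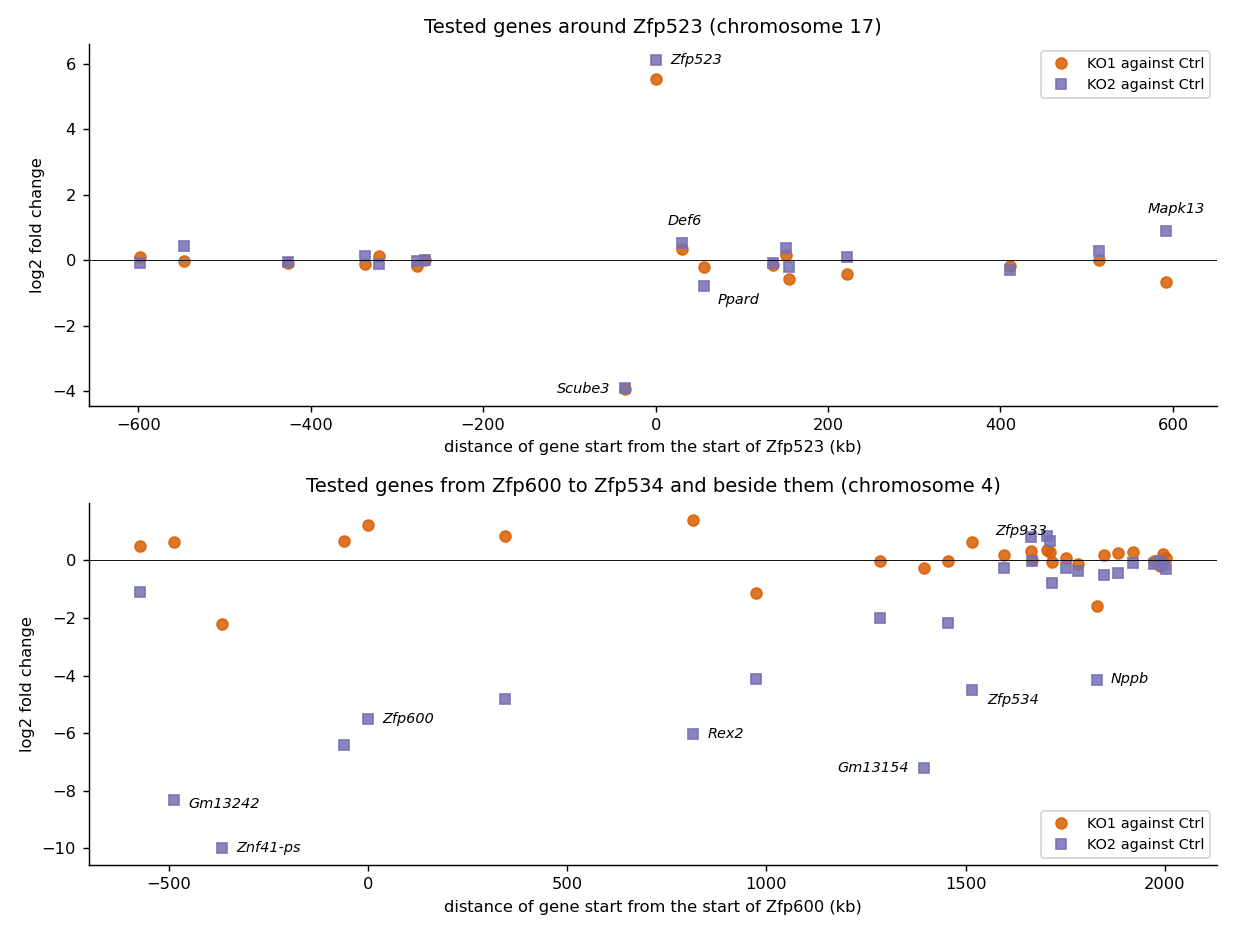
Log2 fold change of each tested gene in KO1 (orange circles) and KO2 (purple squares) against Ctrl, by distance in kb from the start of Zfp523 on chromosome 17 (upper panel) and from the start of Zfp600 on chromosome 4 (lower panel). Zfp523 and Scube3 stand apart from their neighbours in both lines, and 10 zinc finger genes of the chromosome 4 stretch are at least 4-fold lower in KO2; the value of Znf41-ps, with 0 counts in KO2, depends on the prior count.

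The promoters of Zfp600 and Zfp534 are shown because these genes moved together in both lines, again as the 250 bases before the RefSeq start (GRCm38.p6) with CG dinucleotides in capitals. They lie at chr4:146156577-146156826 on the plus strand and at chr4:147702632-147702881 on the minus strand.
Zfp600: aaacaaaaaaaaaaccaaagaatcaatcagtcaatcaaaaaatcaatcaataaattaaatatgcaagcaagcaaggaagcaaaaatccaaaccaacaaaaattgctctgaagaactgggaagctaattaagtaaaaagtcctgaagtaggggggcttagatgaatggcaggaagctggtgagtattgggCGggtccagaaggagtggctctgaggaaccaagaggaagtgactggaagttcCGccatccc
Zfp534: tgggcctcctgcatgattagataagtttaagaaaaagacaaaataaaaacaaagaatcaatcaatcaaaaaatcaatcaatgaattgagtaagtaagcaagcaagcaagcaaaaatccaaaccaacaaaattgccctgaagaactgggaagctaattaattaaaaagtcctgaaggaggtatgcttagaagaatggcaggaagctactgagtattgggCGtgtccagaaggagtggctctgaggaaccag
They hold 2 and 1 CG dinucleotides. Over windows of 300 bases, which run on past the start, 91.3% of the 265 bases aligned without a gap were identical. Rex2, which is not a member, had a window with 299 of 299 aligned bases identical to Zfp600. Aligned the same way, Zfp600 and Zfp523 had 60.7% identical bases, and Zfp600 and the nearby Fv1 74.2%.

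In all, 8 members were called in opposite directions in the lines (2.66%, against 6.05% of all tested genes). Each of them also differed between KO2 and KO1, as did all 828 tested genes with opposite calls, so that contrast adds no support. The count of 8 members was 5 without Ctrl replicate 2 or without Ctrl replicate 3. Besides Zfp600 and Zfp534, the widest gap was that of Zfp185, the LIM domain gene on chromosome X. It had 1.23, 1.62 and 1.33 FPKM in KO1, 0.16, 0.20 and 0.34 FPKM in KO2, and 0.45, 0.47 and 0.62 FPKM in Ctrl. All KO1 libraries were above Ctrl and all KO2 libraries below it, with log2 fold changes of 1.42 (edgeR adjusted p = 0.00103) and -1.04 (edgeR adjusted p = 0.00793). Zfp599 followed the same order (0.59 in KO1 and -0.31 in KO2). Zfp386 (-0.52 and 0.45) and Zfp532 (-0.39 and 0.70) had the reverse order, with Zfp532 at 41.7 ± 1.24 CPM in KO1, 88.8 ± 0.939 CPM in KO2 and 54.5 ± 4.41 CPM in Ctrl (SD, n = 3 each). Zfp422 (0.34 and -0.32) lost its call in KO1 without Ctrl replicate 2 or 3 or KO1 replicate 2 or 3, and in KO2 without Ctrl replicate 1 or KO2 replicate 2. Zfp219 (-0.34 and 0.35) lost its call in KO1 without Ctrl replicate 2 or 3 or KO1 replicate 1, and in KO2 without Ctrl replicate 1 or KO2 replicate 2.

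**Figure D4:**
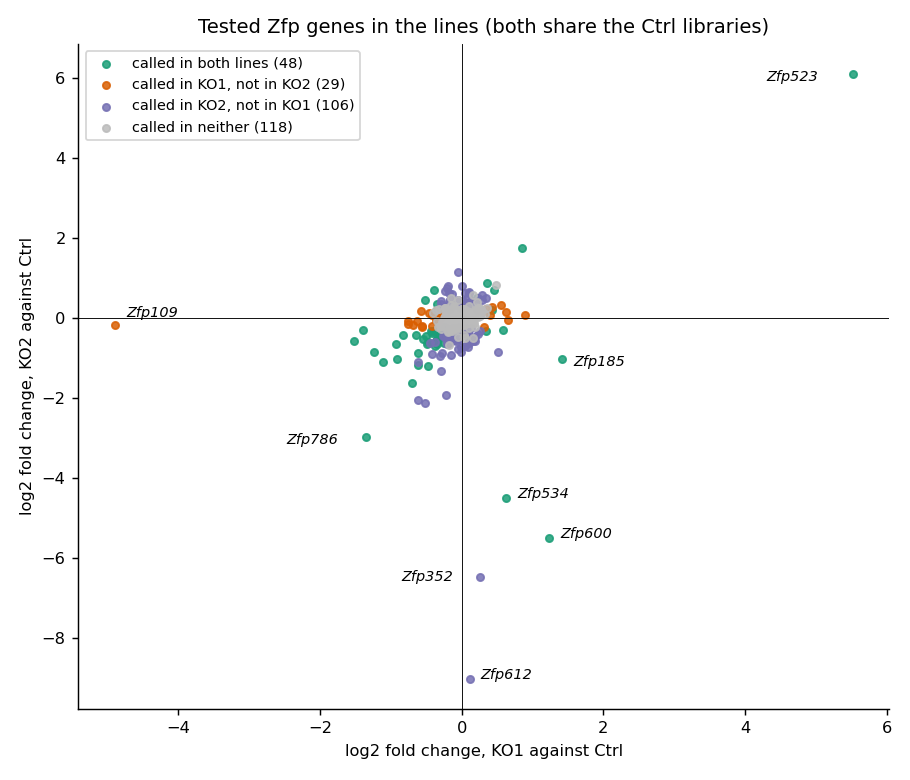
Log2 fold change against Ctrl of each of the 301 tested Zfp genes in KO1 (horizontal) and KO2 (vertical); colours show in which line a gene was called, and both axes share the Ctrl libraries. Most genes lie within 1 unit of 0 on both axes, Zfp523 is far up in both, Zfp109 is far down in KO1, and Zfp612, Zfp352, Zfp600 and Zfp534 are far down in KO2, where the position of Zfp612 and Zfp352 depends on the prior count.

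Among the 33 members lower in both lines, Zfp503 and Zfp36 fell to about the same level in each. Zfp503, also called Nolz1 and a relative of Zfp703, encodes a transcriptional repressor that acts in the developing striatum. It had 14.13, 11.85 and 14.01 FPKM in KO1, 12.2, 11.3 and 12.7 FPKM in KO2, and 25.9, 31.4 and 28.5 FPKM in Ctrl, and no knockout library reached a Ctrl library. For KO1 the log2 fold change was -1.12 ± 0.09 and for KO2 -1.11 ± 0.09 (SE; edgeR adjusted p = 3.75e-06 and 1.28e-06). Zfp36, which encodes the mRNA decay factor tristetraprolin, had 7.76, 7.64 and 8.78 FPKM in KO1, 6.78, 7.12 and 6.87 FPKM in KO2, and 16.2, 13.9 and 14.4 FPKM in Ctrl. Its log2 fold changes were -0.91 and -1.02 (edgeR adjusted p = 3.15e-05 and 4.80e-06). Zfp281, which encodes a repressor of pluripotency genes such as Nanog, was lower by less (-0.64 for KO1, -0.44 for KO2), as was Zfp622, which encodes a factor of 60S ribosomal subunit maturation (-0.42 and -0.38).

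Other members fell in both lines to different degrees. Zfp623 had 10.2, 7.89 and 11.2 FPKM in KO1, 19.0, 15.4 and 17.4 FPKM in KO2, and 25.03, 28.99 and 28.38 FPKM in Ctrl, so that the 3 groups did not overlap. Its log2 fold change was -1.52 for KO1, -0.59 for KO2, and the lines differed by 0.93 (edgeR adjusted p = 9.77e-05). Zfp707 showed the same order, with 4.14, 4.21 and 3.76 FPKM in KO1, 8.55, 7.31 and 8.06 FPKM in KO2, and 9.95, 10.7 and 10.1 FPKM in Ctrl (log2 fold change -1.39 and -0.30). Zfp940 went further down in KO2, with 2.43, 2.95 and 2.35 FPKM in KO1, 1.04, 1.5 and 1.16 FPKM in KO2, and 4.18, 3.77 and 4.18 FPKM in Ctrl (log2 fold change -0.70 and -1.63). Zfp786 was low throughout, with 0.349 ± 0.0635 CPM in KO1, 0.112 ± 0.0701 CPM in KO2 and 0.901 ± 0.111 CPM in Ctrl (SD, n = 3 each; log2 fold change -1.36 and -2.97). Zfp467, whose product promotes fat cell over bone cell formation in the mouse, had log2 fold changes of -1.24 and -0.86, and Zfp3 of -0.92 and -0.66.

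The 7 members higher in both lines were Zfp523, Zfp709, Zfp704, Zfp317, Zfp12, Zfp275 and Zfp740. Zfp709 stood at 0.44, 0.29 and 0.32 FPKM in KO1, at 0.61, 0.61 and 0.60 FPKM in KO2, and at 0.18, 0.19 and 0.20 FPKM in Ctrl, so that the groups did not overlap. Its log2 fold changes were 0.86 and 1.75 (edgeR adjusted p = 0.0123 and 4.48e-05). Zfp704 had 0.45 and 0.70, and Zfp317 had 0.36 and 0.87. Zfp740, at 196 ± 10.4 CPM in KO1, 167 ± 2.18 CPM in KO2 and 146 ± 4.80 CPM in Ctrl (SD, n = 3 each), lost its call in KO2 under total count scaling (log2 fold change 0.12) and without Ctrl replicate 1 or 3 or KO2 replicate 1 or 2.

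Some members changed in KO1 and were not called in KO2. Zfp703, the counterpart of the human oncogene ZNF703 of luminal breast cancer, had 13.6, 12.5 and 14.7 FPKM in KO1, 7.69, 7.65 and 7.74 FPKM in KO2, and 6.76, 9.64 and 8.86 FPKM in Ctrl. KO1 was above every other library (log2 fold change 0.66, edgeR adjusted p = 0.00153), KO2 lay within the Ctrl range (-0.06, edgeR adjusted p = 0.716), and the log2 difference of KO2 from KO1 was -0.71 (edgeR adjusted p = 0.000426). Zfp827, which encodes a factor that recruits a histone deacetylase complex to telomeres in human cells, had log2 fold changes of 0.63 for KO1, 0.16 for KO2, with a difference of -0.48 between KO2 and KO1 (edgeR adjusted p = 0.00115). Zfp277 was lower in KO1 (log2 fold change -0.64, against -0.08 in KO2), with a difference of 0.56 between KO2 and KO1 (edgeR adjusted p = 0.000224), and so was Zfp580 (-0.76 and -0.16), with 0.59 (edgeR adjusted p = 0.00358).

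Others changed in KO2 and were not called in KO1. Zfp13 had 1.35, 1.44 and 1.32 FPKM in KO1, 2.71, 2.74 and 2.76 FPKM in KO2, and 1.42, 1.34 and 1.54 FPKM in Ctrl, with KO2 above all other libraries (log2 fold change 1.15, edgeR adjusted p = 1.88e-05). Zfp236 was at 313 ± 8.98 CPM in KO1, 542 ± 19.99 CPM in KO2 and 312 ± 14.7 CPM in Ctrl (SD, n = 3 each; log2 fold change 0.80 in KO2). Zfp771 (0.80), Zfp365 (0.76) and Zfp653 (0.67) were also higher. Lower were Zfp300 (-2.13) and Zfp953 (-1.34), both under 2 CPM in every group mean, and, among expressed members, Zfp40 (-0.85) and Zfp558 (-0.72).

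Set directly against KO1, KO2 differed in 142 of the 301 tested members (47.2%, against 55.0% of all genes), with 80 higher (26.6%, against 25.5%) and 62 lower (20.6%, against 29.5%). This balance depends on the scaling. Under total count scaling 53 members were higher and 88 lower, and the median of all tested genes moved by -0.11 on the log2 scale. At least 2-fold were 4 members higher in KO2 (Zfp109, Zfp13, Zfp532 and Zfp707; 1.33%, against 3.76%) and 10 lower (3.32%, against 12.1%).

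Chaining members whose neighbouring gene starts lie under 500 kb apart gave 13 clusters with at least 5 tested members, which hold 130 of the 301. A whole cluster can thus span more than 500 kb. In no cluster were all tested members called in KO2, and the balance differed from one to the next. The shares of all tested genes to set beside the counts are 14.9% lower and 15.6% higher in KO1, and 29.5% lower and 24.6% higher in KO2. In the cluster of 15 tested members on chromosome 7 from 29768552 to 30169775, 9 were lower (60.0%) and 1 higher in KO2, with a median log2 fold change of -0.39; leaving out 1 library in turn gave 8 or 9 lower, and 0 higher without Ctrl replicate 2 or 3 or KO2 replicate 1 or 2. There Zfp568, which silences a placental promoter of Igf2 in the mouse embryo, had a log2 fold change of -0.63 in KO2. Its -0.25 in KO1 passed the test with all libraries (edgeR adjusted p = 0.0224) and missed it without Ctrl replicate 1 or 3 or KO1 replicate 3, with the block and on FPKM values (adjusted p of 0.0565 to 0.0843). In KO1 8 of the 15 were lower (53.3%) and 0 higher, but 3 were lower without Ctrl replicate 1, without Ctrl replicate 3 or without KO1 replicate 3, and 5 without Ctrl replicate 2 or without KO1 replicate 2. Among 19 on chromosome 13, from 67038594 to 67827000, 0 were called in KO1 and 7 were lower in KO2 (36.8%, near the share of all genes, and 4 without Ctrl replicate 1), with a median of -0.34. Among 11 on chromosome 17, from 32765496 to 33631716, 5 were higher (45.5%) and 1 lower in KO2 (3 higher without KO2 replicate 2), with a median of 0.36. Among 10 on chromosome 7, from 127233061 to 127885996, all had a negative value in KO1 and 4 were lower, both with all libraries and with any 1 left out, while in KO2 2 were higher and 1 lower (0 lower without any 1 Ctrl library or without KO1 replicate 3, and 3 without KO1 replicate 1).

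**Figure D5:**
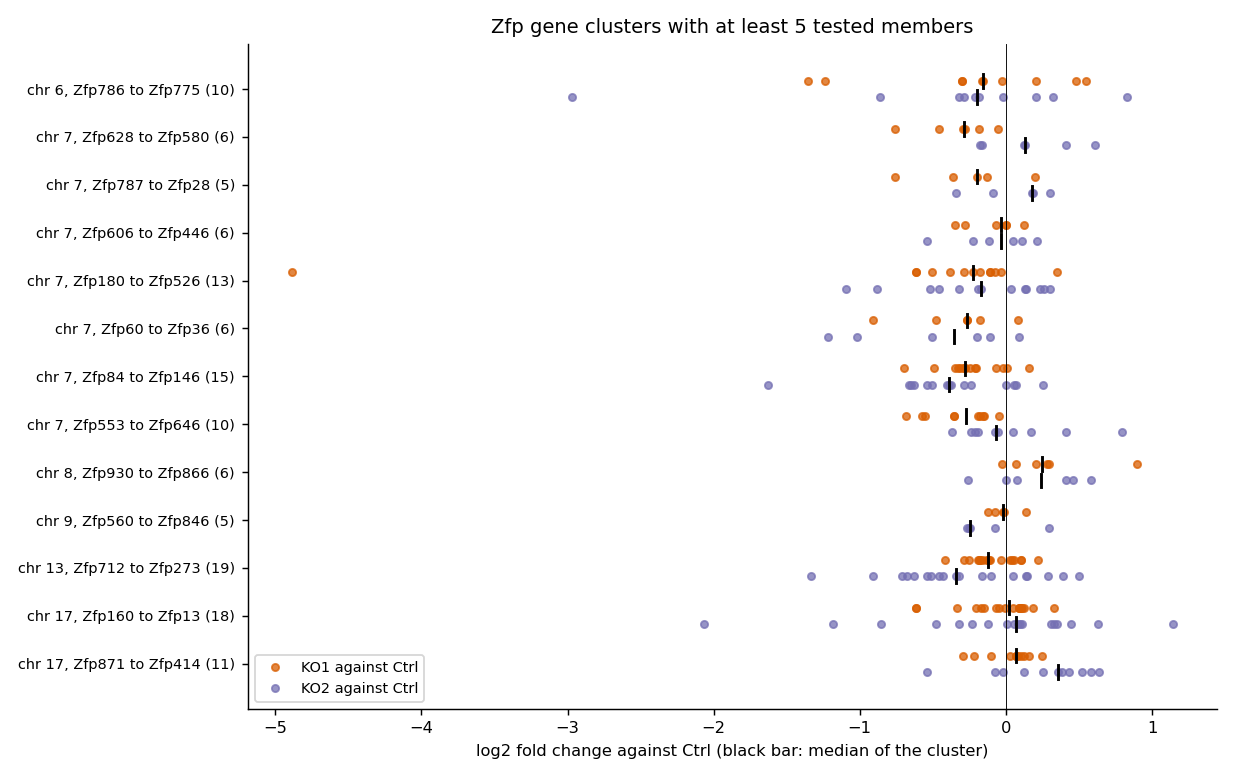
Log2 fold change against Ctrl of each tested member of the 13 Zfp gene clusters in KO1 (orange) and KO2 (purple), named by their first and last member with the number tested; black bars are cluster medians. In KO2 the median is below 0 for the clusters from Zfp84 to Zfp146 (-0.39) and from Zfp712 to Zfp273 (-0.34) and above 0 for that from Zfp871 to Zfp414 (0.36).

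Of 36 members with a described function, chosen from general knowledge but with earlier results of these data known, 31 could be tested. Their shares may therefore reflect the choice of the list. In KO1 1 was higher, Zfp703, and 12 were lower (38.7%, against 18.6% of all tested members and 14.9% of all tested genes). The 12 became 7 without Ctrl replicate 1, without Ctrl replicate 3 or without KO1 replicate 3. In KO2 5 were higher (16.1%, against 17.3% of all tested members and 24.6% of all tested genes) and 17 lower (54.8%, against 33.9% and 29.5%). Leaving out 1 library in turn gave 4 or 5 higher and 14 to 17 lower. Zfp57, which keeps imprinted regions methylated, had 6.04, 6.08 and 5.48 FPKM in KO1, 3.12, 3.51 and 3.29 FPKM in KO2, and 5.48, 4.89 and 5.61 FPKM in Ctrl. It was below every other library in KO2 (log2 fold change -0.59, edgeR adjusted p = 0.0011) and overlapped Ctrl in KO1 (0.16, edgeR adjusted p = 0.302). Zfp809, which silences murine leukaemia virus, was also lower in KO2 (log2 fold change -0.52, edgeR adjusted p = 0.00232) and not called in KO1 (0.10). Zfp207 (0.45), Zfp148 (0.43) and Zfp335 (0.41) were higher in KO2. Zfp217, whose human counterpart is amplified in breast cancer, ranged only from 21.2 to 22.4 FPKM over the 9 libraries and was called in neither line. Zfp598, which encodes a ubiquitin ligase that senses collided ribosomes, ranged from 27.7 to 51.4 FPKM across libraries and was called in neither.

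The tables attach a KRAB orthology label to 282 of the 324 members, which is a label by homology and not evidence of the domain. Of the 260 labelled and tested, 45 were lower (17.3%, against 14.9% of all tested genes) and 17 higher (6.54%, against 15.6%) in KO1, and 88 were lower (33.8%, against 29.5%) and 42 higher (16.2%, against 24.6%) in KO2, with a median log2 fold change of -0.08 in each line. In KO1 the lower calls were 28 without Ctrl replicate 1, 26 without Ctrl replicate 3 and 27 without KO1 replicate 3, and the higher calls 11 without Ctrl replicate 2 and 8 without Ctrl replicate 3. Of the 41 tested members without the label, 11 were lower (26.8%) and 4 higher (9.76%) in KO1, and 14 were lower (34.1%) and 10 higher (24.4%) in KO2. Median levels in Ctrl were 4.71 FPKM with the label and 12.5 FPKM without it.

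Of 31 tested genes of the KRAB corepressor and silencing machinery, a list of non-members, 4 were lower (12.9%, against 14.9% of all tested genes) and 2 higher (6.45%, against 15.6%) in KO1. There 9 were lower without KO1 replicate 1, and 1 was higher without any 1 of Ctrl replicate 1, KO1 replicate 1, KO2 replicate 1 and KO2 replicate 3. In KO2 10 were lower (32.3%, against 29.5% of all tested genes) and 12 higher (38.7%, against 24.6%). Trim28, the corepressor itself, was at 277 ± 17.7 CPM in KO1, 349 ± 20.5 CPM in KO2 and 359 ± 17.2 CPM in Ctrl (SD, n = 3 each), with log2 fold changes of -0.38 (edgeR adjusted p = 0.00249) and -0.04 (edgeR adjusted p = 0.649). Setdb1 was called in neither line (0.16 and 0.00). In KO2 the H3K9 methyltransferase gene Suv39h1 was higher (0.88) and Morc3 lower (-0.90). Atf7ip2, a relative of the SETDB1 cofactor gene Atf7ip, was at 1.87 ± 0.385 CPM in KO1, 0 in every KO2 library and 4.25 ± 0.534 CPM in Ctrl (SD, n = 3 each). Of 19 tested Zkscan and Zscan genes, which add a SCAN domain to the zinc fingers, 7 were lower (36.8%, against 14.9% of all tested genes) and 0 higher (against 15.6%) in KO1, with 4 lower without Ctrl replicate 1 or 3. In KO2 7 were lower (36.8%, against 29.5%) and 3 higher (15.8%, against 24.6%), with 4 lower without Ctrl replicate 1 or 3 or KO2 replicate 3, and 1 higher without KO2 replicate 2. Of 40 other C2H2 regulator genes, 4 were lower and 3 higher in KO1, smaller shares than the 14.9% and 15.6% of all tested genes. In KO2 13 were lower (32.5%, near the 29.5% of all tested genes) and 5 higher (12.5%, against 24.6%). Leaving out 1 library in turn gave 9 to 15 lower and 5 to 7 higher in KO2.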

How the data were processed

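RNA of 9 cultured cell libraries was sequenced on the BGISEQ-500 platform as paired-end reads, per the labels' protocols. The authors' tools were HISAT and RSEM and their builds mm10 and GRCm38, per the submitters' processing notes; versions are not given in the sources used here. Each deposited table gives per gene an expected count, which the authors did not normalise, and an FPKM, which the authors corrected for gene length and depth. The tables list no FPKM under 0.01, and an unlisted gene was taken as 0. Samples were grouped by their titles.

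Expected counts were rounded and tested in R 4.3.3 by the robust quasi-likelihood F test of edgeR 4.0.16, after filterByExpr on the groups and TMM scaling, with all 9 libraries in 1 fit and 6 residual degrees of freedom. The Benjamini-Hochberg adjustment ran over 13682 tested genes, and a call means an adjusted p below 0.05. CPM are after TMM scaling, fold changes are knockout over Ctrl or KO2 over KO1, and each SE was back-calculated from the F statistic. The common biological coefficient of variation was 11.1%, and the fit was tested on simulated data. Totals of 30655924 to 35406395 counts set the precision; intervals and the floor of 3 counts cover counting error only. Positions and promoters came from RefSeq (GRCm38.p6), which held all 324 members by identifier.

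The members and lists were chosen with earlier results of these data known. Genes were named by a rule: Zfp523; members switched on or off; the 10 largest called changes per direction and line and the 5 per direction between the lines, at 1 CPM or more; opposite calls; the 10 highest in Ctrl; members with a described function; and the largest change per cluster. Zfp2, Zfp352, Zfp711, Zfp111, Zfp933, Zfp40, Zfp558, Zfp12 and Zfp275 and the genes that are not Zfp members were named outside it, after their values were seen. Libraries with the same replicate number were treated as unpaired, since the labels do not say that a number marks a shared day or batch. Correlations of their deviations lay between -0.34 and 0.05. Those of libraries with different numbers lay between -0.17 and 0.34, so these values do not settle the pairing. The alternatives were other scalings and filters, DESeq2 1.42.0, limma 3.58.1 (voom, and on log2(FPKM + 1) and log2(FPKM + 0.1)), fits of just 2 groups, stricter thresholds, omission of each library and a fit with replicate number as a block.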

Additional observations from a re-analysis of the deposited data

Results flagged for a closer look

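For 8 members the 2 knockout lines differed in the direction of their change from Ctrl, with a call in each line. The test of KO2 against KO1 passed too, but it did so for all 828 tested genes with opposite calls and adds no support. The log2 difference of KO2 against KO1 was -6.74 for Zfp600, -5.13 for Zfp534, -2.45 for Zfp185, -0.90 for Zfp599 and -0.66 for Zfp422. It was 1.09 for Zfp532, 0.97 for Zfp386 and 0.69 for Zfp219. Zfp600 and Zfp534 lie on the same stretch of chromosome 4 and have close copies there, so they are not separate observations. No explanation was tested for any of them.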

How the results depend on the processing

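No call of a named gene changed direction. Over 146 pairs of gene and contrast, 3351 values were recomputed, of which 3106 stayed on their side of the threshold, 224 lost the call and 21 gained it. Of the 3106, 39 values of 18 pairs changed sign, none of them called with either setting and none beyond 0.15 on the log2 scale. Leaving out 1 library in turn gave 49 to 72 called members in KO1 (77 with all), 25 to 45 called in the same direction in both lines (40 with all) and 5 to 10 called in opposite directions (8 with all). At an adjusted p under 0.01 the counts were 37 in KO1, 96 in KO2, 94 between the lines, 16 in the same and 4 in opposite directions. With a minimum of 2-fold they were 9, 19, 14, 3 and 2. The 1 member switched off in KO2 became 2, Zfp612 and Zfp786, when up to 10 counts were allowed, and 0 when no KO2 library could list the gene, since 1 lists Zfp612 at 0.01 FPKM. With a replicate block the counts were 57 in KO1, 132 in KO2, 126 between the lines, 28 in the same and 8 in opposite directions; the numbers are not known to pair the samples. Depth limits members with few counts, such as Zfp352 and Zfp2.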
